A study of Mus musculus with 4 samples.

Results

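Of the 55341 genes counted in the cerebellum of these mice, 8 are described here: the long noncoding RNA genes Miat, Gm26953, Malat1, Neat1, Gm37376, Snhg11, Rmst and Pantr1. They were chosen by name, with their levels in this comparison already known: higher Miat and Gm26953 and lower Gm37376 in Kdm6b-cKO were part of the choice. Their differences between genotypes are therefore given as descriptions, without a test. All 8 passed the filter on low counts, as did 16617 genes in all and 2621 long noncoding genes. The RNA came from cerebellar tissue at postnatal day 14, from 2 Kdm6b-cKO and 2 WT mice. Kdm6b-cKO mice were Atoh1-Cre; Kdm6b fl/fl. WT mice were Kdm6b fl/fl littermates, so the floxed alleles were shared by both genotypes. The Atoh1 driver is active in precursors of granule neurons and in other cells of the rhombic lip lineage, and cells outside it keep Kdm6b. Each library was the tissue of an individual mouse.

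Long noncoding RNAs of this kind are transcribed, and in many cases spliced, much like messenger RNAs but are not translated, and several of them stay in the nucleus. Malat1, Neat1 and Gm37376 are each annotated with 1 exon. Malat1 collects in nuclear speckles, which store splicing factors. Neat1 is the scaffold of paraspeckles, nuclear bodies that hold RNA-binding proteins. Miat, also called Gomafu, is found in the nuclei of neurons, where repeats of the sequence UACUAAC in it bind the splicing factor SF1. It has also been described to bind QKI, CELF3 and SRSF1. Snhg11 hosts a small nucleolar RNA and is abundant in neurons, Rmst binds the transcription factor SOX2 in human neural cells, and Pantr1 lies beside the neural transcription factor gene Pou3f3. No role is given here for Gm26953 or Gm37376. KDM6B, the product of the targeted gene, is a histone demethylase that removes methyl groups laid down by Polycomb.

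The repeats of Miat that bind SF1 in published work could be read directly from its exons. They are shown as DNA on the strand of Miat, from GENCODE M21 on GRCm38, with each copy of TACTAAC in capitals. The first stretch is at chr5:112217313-112217456 on the minus strand, nucleotides 4935 to 5078 of the transcript Miat-205, and the second at chr5:112216756-112216808, nucleotides 5583 to 5635.
Miat repeats, first stretch: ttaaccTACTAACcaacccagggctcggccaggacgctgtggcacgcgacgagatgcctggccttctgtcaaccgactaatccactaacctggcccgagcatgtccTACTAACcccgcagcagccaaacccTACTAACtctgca
Miat repeats, second stretch: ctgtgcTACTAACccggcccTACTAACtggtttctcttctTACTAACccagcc
These 2 stretches hold all 6 copies in Miat-205. In the longest transcript of each of 2622 long noncoding genes, TACTAAC was found at least once in 150, or 5.72%, and no other transcript had as many copies as Miat. Miat-205 is also the 11th longest of them, and per kb it ranked 26th. Among long transcripts, the 92 of at least 5000 nucleotides had a median of 0 copies and, Miat aside, at most 4. The other strand of Miat, read as GTTAGTA, had 0 matches. Neat1 had 1 copy of TACTAAC, and the other members had 0.

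Gm37376 is shown beside Malat1 because both are annotated on the same bases. The 453 bp exon of Gm37376 (chr19:5801941-5802393, plus strand) lies wholly inside the single 6983 bp exon of Malat1 (chr19:5795690-5802672, minus strand), opposite nucleotides 280 to 732 of Malat1-201. The pair of lines below gives the same 60 bases, chr19:5802137-5802196, as each gene reads them, with the middle 20 bases in capitals. Each line is the reverse complement of the other.
Gm37376: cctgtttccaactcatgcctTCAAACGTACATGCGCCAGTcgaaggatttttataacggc
Malat1: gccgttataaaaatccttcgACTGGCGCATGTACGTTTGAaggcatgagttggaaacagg
Malat1 has no ordinary poly(A) tail. Its end is made by RNase P, which cuts after an A-rich stretch encoded in the genome. The longest run of A in Malat1-201, in capitals in the next line, has 12 bases and lies in nucleotides 6662 to 6697 of 6983 (chr19:5795976-5796011, minus strand). It is shown because the libraries were enriched for poly(A), and an encoded run of A is where such an enrichment could bind Malat1.
Malat1 A run: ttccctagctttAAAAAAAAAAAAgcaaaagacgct

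The libraries held between 8811849 and 9892363 counts in genes, of which the 8 members took 0.270% and 0.25% in Kdm6b-cKO and 0.332% and 0.36% in WT. Kdm6b itself was at 127 and 119 CPM (TMM-scaled counts relative to the library total) in Kdm6b-cKO and 154 and 154 CPM in WT (edgeR adjusted p = 0.0162), with a log2 fold change of −0.33 and an SE of 0.076. The deletion removes only some of its exons, so reads from the rest still count. The Kdm6b call was lost with any library left out and with no filter on low counts. WT 1 had the male pattern of Xist and Y-linked genes and the other 3 libraries the female pattern, so sex runs partly with genotype, and values without WT 1 are given below. Markers of mature granule neurons were abundant in every library, with 10 genes summing to 5733 and 5187 CPM in Kdm6b-cKO and 6241 and 6365 CPM in WT, as the tissue label has it.

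Miat, the neuronal RNA with the SF1-binding repeats, was higher in Kdm6b-cKO. It was at 211 and 285 CPM in Kdm6b-cKO and at 109.8 and 107 CPM in WT, and the genotypes did not overlap. The means were 248 ± 51.9 CPM in Kdm6b-cKO and 108 ± 2.21 CPM in WT (SD, n = 2 each), a 2.29-fold higher level and a log2 fold change of 1.20 (SE 0.101). The 2 WT libraries lay close together, while Kdm6b-cKO 2 stood above Kdm6b-cKO 1. In tissue RNA, more cells that make an RNA and more of it per cell cannot be told apart, here and for every member below.

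Gm26953 followed Miat in every library. It was at 98.7 and 132 CPM in Kdm6b-cKO and at 50.7 and 47.5 CPM in WT, again with Kdm6b-cKO 2 highest and no overlap. Its means were 115 ± 23.8 CPM in Kdm6b-cKO and 49.1 ± 2.25 CPM in WT (SD, n = 2 each), a 2.35-fold higher level and a log2 fold change of 1.23 (SE 0.109). Gm26953 (chr5:112215461-112233720, plus strand) is annotated across Miat (chr5:112213228-112229395, minus strand), and 2260 of its 4532 exon bp lie opposite exons of Miat. Its counts were 46.7% and 46.4% of those of Miat in Kdm6b-cKO and 46.2% and 44.5% in WT. The ratio stayed within this narrow range while the level of each gene differed more than 2-fold between genotypes.

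**Figure D1:**
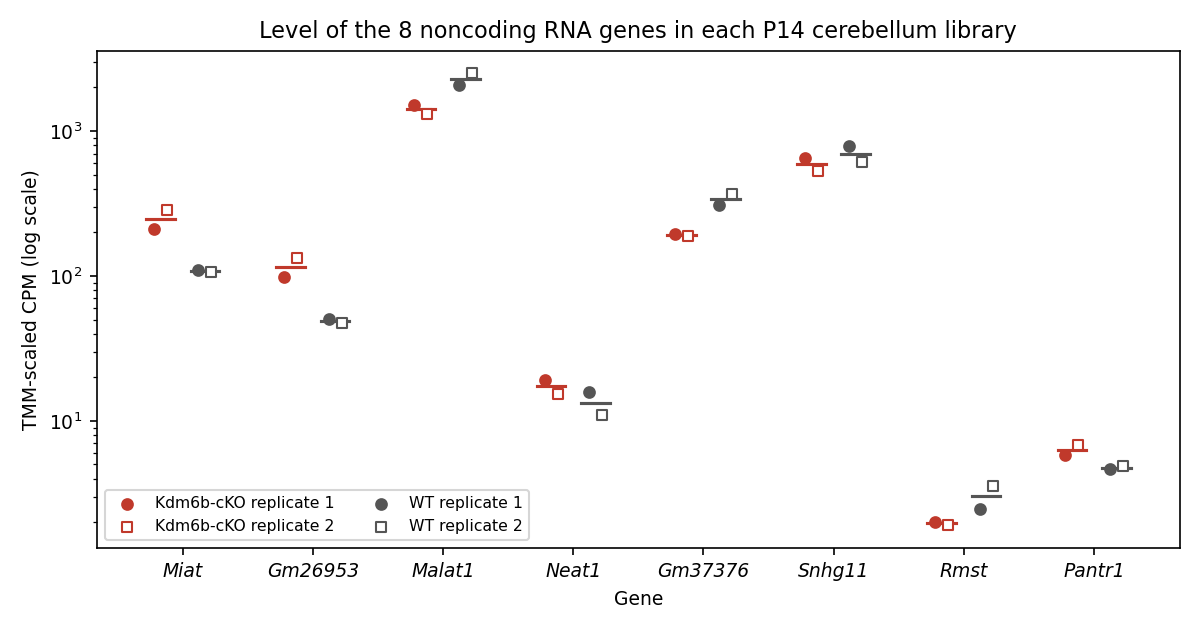
TMM-scaled CPM on a log axis of the 8 genes in each library, with Kdm6b-cKO (red) left of WT (grey), filled circles for replicate 1, open squares for replicate 2, and bars for genotype means. Miat and Gm26953 are higher and Malat1 and Gm37376 lower in both Kdm6b-cKO libraries, while Neat1 and Snhg11 overlap between genotypes.

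Malat1 was the most abundant member in CPM and was lower in Kdm6b-cKO. It had 1511 and 1310.4 CPM in Kdm6b-cKO, against 2074 and 2503 CPM in WT. The higher Kdm6b-cKO library was below the lower WT library, and the means were 1411 ± 142 CPM in Kdm6b-cKO and 2289 ± 303 CPM in WT (SD, n = 2 each). That is a 1.62-fold lower level and a log2 fold change of −0.70 (SE 0.0818).

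Gm37376, annotated opposite the Malat1 exon, moved the same way as Malat1. It was at 196 and 187 CPM in Kdm6b-cKO and at 309 and 370.2 CPM in WT. Its means were 192 ± 5.83 CPM in Kdm6b-cKO and 339.5 ± 43.3 CPM in WT (SD, n = 2 each), a 1.77-fold lower level and a log2 fold change of −0.83 (SE 0.0794). WT 2 was highest for both genes. The counts of Gm37376 were 12.9% and 14.3% of those of Malat1 in Kdm6b-cKO and 14.9% and 14.8% in WT.

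**Figure D2:**
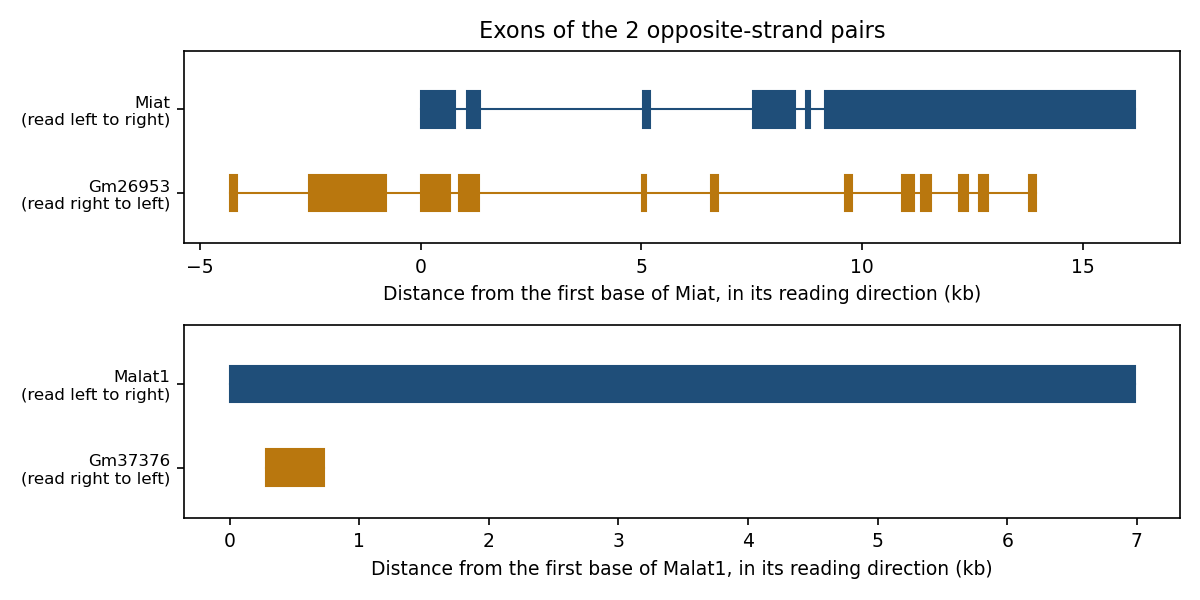
Exons (boxes) of Miat with Gm26953 and of Malat1 with Gm37376, to scale in kb from the first base of Miat or Malat1 in its reading direction. Gm26953 crosses Miat with 2260 exon bp opposite Miat exons, and the 453 bp of Gm37376 lie wholly inside Malat1.

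Counts on opposite strands bear on how these pairs can be read. HTSeq, which the authors used, assigns no read lying over a pair of genes unless it uses strand, so a gene wholly inside exons of another gene would have no counts without it. Of the 107 genes of at least 200 exon bp that lie wholly inside opposite-strand exons of a gene with at least 1000 counts, 107 had counts. Per kb of exon, their counts had a median of 1.60 times those of the host gene (quartiles 0.537 and 2.47), and Gm37376 was at 2.21 times Malat1. In 81 of the 107 the ratio was 0.5 or more. Gm26702, inside exons of Ajm1, had 19737 counts and its host 20230, with log2 fold changes of −0.31 and −0.28. Neither the strand setting nor the strand chemistry of the libraries was given in the sources used here. Reads of Gm37376 cannot be told apart from those of Malat1, nor those of the shared stretch of Gm26953 from those of Miat.

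**Figure D3:**
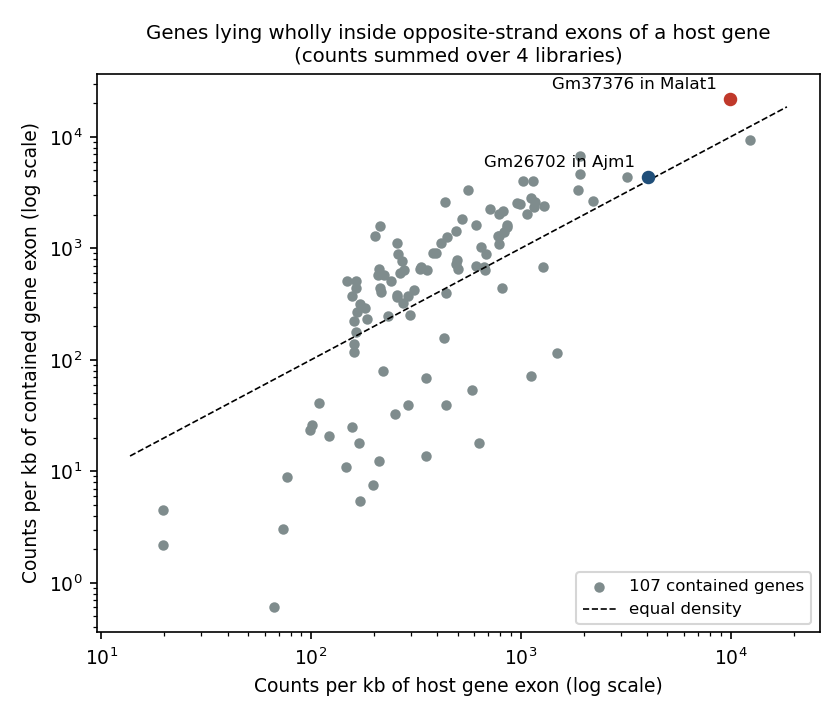
Each of 107 points is a gene lying wholly inside opposite-strand exons of a host gene, with its counts per kb of exon against those of the host, both summed over the 4 libraries on log axes, and a dashed line at equal density. Gm37376 lies above the line at 2.21 times Malat1 and Gm26702 close to it at 1.07 times Ajm1.

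Neat1 (chr19:5824708-5845478, minus strand), transcribed from the neighbouring locus of Malat1, was low in this tissue. It was at 19.3 and 15.3 CPM in Kdm6b-cKO and at 15.9 and 10.9 CPM in WT, and the genotypes overlapped. The means of 17.3 ± 2.76 CPM in Kdm6b-cKO and 13.4 ± 3.50 CPM in WT (SD, n = 2 each) gave a log2 fold change of 0.37 (SE 0.188). Its short polyadenylated form and its long form are counted together in a 20771 bp exon. Enrichment for poly(A) selects the short form, so these values say little about the long form that builds paraspeckles.

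Snhg11 (chr2:158375638-158386145, plus strand) was abundant, and its genotypes overlapped. It was at 649 and 528 CPM in Kdm6b-cKO and at 787 and 613 CPM in WT, and its lower WT library was below its higher Kdm6b-cKO library. The means were 589 ± 85.5 CPM in Kdm6b-cKO and 700.2 ± 123 CPM in WT (SD, n = 2 each), a log2 fold change of −0.25 (SE 0.0992). The small nucleolar RNA gene Gm25129, inside it on the same strand, had a log2 fold change of 0.71 (edgeR adjusted p = 0.548). This rests on 27 and 10 counts in Kdm6b-cKO and 13 and 9 in WT. It is not read as a level of the small nucleolar RNA apart from Snhg11. The annotation used here lists Snhg11 as protein coding, although it is commonly treated as a noncoding host gene.

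Rmst (chr10:92071037-92165170, minus strand) and Pantr1 (chr1:42590782-42694842, minus strand) were measured near the limit of depth. Rmst had 20 and 17 counts in Kdm6b-cKO and 23 and 33 in WT, or 2.02 and 1.90 CPM against 2.48 and 3.56 CPM. Its log2 fold change was −0.62 (SE 0.403), and although the genotypes did not overlap the gap between the nearest libraries was 3 counts. Pantr1 had 58 and 61 counts in Kdm6b-cKO and 43 and 45 in WT, or 5.85 and 6.83 CPM against 4.64 and 4.86 CPM, with no overlap. Its log2 fold change was 0.41 (SE 0.269). Differences of this size could not be resolved at this depth.

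By the rule of an edgeR adjusted p under 0.05, Miat and Gm26953 were past the threshold as higher, Malat1 and Gm37376 as lower, and the other 4 did not pass. Among all tested genes 4.04% passed (1.87% as higher and 2.17% as lower), and among tested long noncoding genes 2.25% did (0.992% as higher and 1.26% as lower). The genotypes did not overlap in 6 of the 8 members, where 46.4% of all tested genes and 42% of tested long noncoding genes had such groups. Of 490 tested genes in the provisional annotation class of Gm37376 (TEC), 1.22% passed, 0.816% passed as lower and 39% had groups that did not overlap. Since the same contrast was used to choose the members, nothing is read from these counts.

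Per kb of exon, which allows levels of different genes to be compared, the order differed from that in CPM. Malat1 had a mean of 265 RPKM (range over the 4 libraries 188 to 358) and Snhg11 75.6 (62.0 to 92.3). Gm37376 was listed at 586 RPKM (414 to 817), but all of its exon lies opposite Malat1, so this value is not read as a level of its own. Miat at 19.2 (11.5 to 30.7) and Gm26953 at 18.2 (10.5 to 29.2) were the only neighbours in this order whose ranges overlapped, and the reads of their shared stretch cannot be told apart. Below them were Pantr1 at 1.24 (1.04 to 1.53), Neat1 at 0.739 (0.525 to 0.927) and Rmst at 0.336 (0.257 to 0.480). Exon length was the union of annotated exons, so a gene read mostly from a short form, such as Neat1, has its level understated on this scale.

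Each member kept its direction when any single library was left out, but the size rested on individual libraries. The log2 fold change of Miat was 0.97 without Kdm6b-cKO 2 and 1.40 without Kdm6b-cKO 1, and it was 1.22 without WT 1. Malat1 stayed between −0.83 and −0.56, with −0.83 without WT 1, the library with the male pattern. For Gm37376 the range was −0.95 to −0.69, and for Gm26953 it was 1.01 to 1.43. Of the members whose groups overlapped, Neat1 was between 0.13 and 0.67, and Snhg11 between −0.42 and −0.059.

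**Figure D4:**
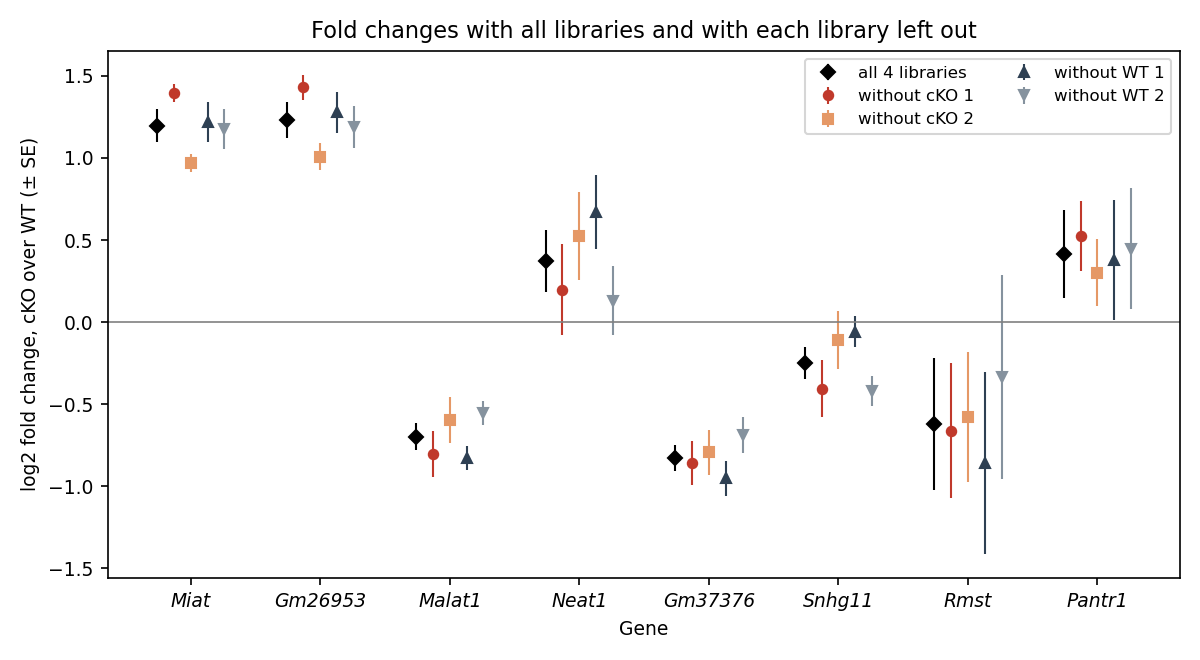
Log2 fold change (Kdm6b-cKO over WT) of each of the 8 genes with all 4 libraries and with each library left out in turn, with bars of 1 SE. Miat does not go below 0.97 or Gm26953 below 1.01, and Malat1 does not go above −0.56 or Gm37376 above −0.69.

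Of the genes beside the members, which the choice did not use, none of the nearest tested genes that are not members passed the test. Tpst2, an enzyme gene of protein sulfation 47.3 kb from Miat, was at 16.5 and 16.1 CPM in Kdm6b-cKO and 20.2 and 19.4 CPM in WT (log2 fold change −0.28, edgeR adjusted p = 0.385). Mn1, a transcriptional regulator gene on the other side at 756 kb, was at 5.04 and 3.81 CPM in Kdm6b-cKO and 3.02 and 2.16 CPM in WT (log2 fold change 0.77, edgeR adjusted p = 0.265). Within 500 kb of Miat, 9 genes other than members were tested and 0 were called in edgeR, DESeq2 or limma-voom. Their median log2 fold change was −0.036. At an unadjusted p under 0.05 in edgeR there were 0, where 2710 of the 16617 tested genes had such a p.

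The gene-dense locus of Malat1 and Neat1 on chromosome 19 had 56 other tested genes within 500 kb, with a median log2 fold change of −0.0028. Of these, edgeR and limma-voom called 2 and DESeq2 0. The 2 edgeR calls were a share near the 4.04% of all tested genes called. At an unadjusted p under 0.05 in edgeR there were 8, where 2710 of the 16617 tested genes had such a p. The edgeR calls were Sart1, a splicing factor gene, at 0.42 (SE 0.11, edgeR adjusted p = 0.0370) and AC125059.4 at −0.64 (SE 0.157, edgeR adjusted p = 0.0234). Both were named after their values were seen. Frmd8os, 0.145 kb from Neat1, had a log2 fold change of 0.52 (edgeR adjusted p = 0.541).

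For the other members, Ralgapb, 23.7 kb from Snhg11, had a log2 fold change of −0.071 (edgeR adjusted p = 0.705) and the noncoding host gene Snhg17, 14.1 kb away, 0.31 (edgeR adjusted p = 0.442). Tmpo and Nedd1, the nearest tested genes on either side of Rmst but 889.7 and 519.6 kb away, had 0.23 and 0.063 (edgeR adjusted p = 0.214 and 0.946). On either side of Pantr1, AC122898.1 at 0.083 kb had −0.52 and Mfsd9 at 1800.1 kb had 0.057 (edgeR adjusted p = 0.599 and 0.968). Pou3f3, the neural transcription factor gene next to Pantr1, was named after its value was seen. It was at 64.8 and 78.1 CPM in Kdm6b-cKO and 61.2 and 71.9 CPM in WT (log2 fold change 0.10, edgeR adjusted p = 0.702).

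Proteins of the nuclear bodies that Neat1 and Malat1 belong to were measured through their genes, and a difference appeared among paraspeckle proteins. Of 32 tested genes 7 rose and 0 fell in Kdm6b-cKO, where 1.87% of all tested genes rose. The list's median log2 fold change was 0.13, beside 0.0036 over all tested genes. Hnrnpa1, a splicing regulator, was at 359 and 365 CPM in Kdm6b-cKO and 251 and 231 CPM in WT (log2 fold change 0.59, SE 0.070, edgeR adjusted p = 2.63e-05). Taf15, an RNA-binding protein of the FET family, was at 74.8 and 72.5 CPM in Kdm6b-cKO and 45.1 and 51.2 CPM in WT (log2 fold change 0.61, SE 0.095, edgeR adjusted p = 0.000542). Cirbp, a cold-inducible RNA-binding protein, was at 93.7 and 88.6 CPM in Kdm6b-cKO and 65.2 and 61.9 CPM in WT (log2 fold change 0.52, edgeR adjusted p = 0.000741). In these 3 genes, named for the smallest p in the list, both Kdm6b-cKO libraries lay above both WT libraries. Over all tested genes, 46.4% had genotypes that did not overlap.

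Rbmx, Ewsr1 and Hnrnph3 were also among the 7, with log2 fold changes of 0.39, 0.26 and 0.39 (edgeR adjusted p = 0.0206, 0.0383 and 0.0396). These proteins are found throughout the nucleus and not only in paraspeckles, and Neat1 itself did not separate between genotypes.

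Genes of nuclear speckles, where Malat1 resides, were called at about the share of all tested genes, which was 4.04%. Of 27 tested nuclear speckle and SR protein genes 1 rose and 0 fell, with a median log2 fold change of 0.036. The gene that rose, Acin1, encodes a nuclear protein of the splicing machinery (log2 fold change 0.26, edgeR adjusted p = 0.0341). It did not pass in DESeq2, which called 0 of the 27, nor with upper-quartile scaling, no filter on low counts, or either WT library left out. Of the splicing factors described to bind Miat, Celf3 and Qk were tested. Their log2 fold changes were 0.18 and −0.097 (edgeR adjusted p = 0.243 and 0.527). Sf1 was listed at 0 and 0 counts in Kdm6b-cKO and 0 and 1 in WT, and Srsf1 at 2 and 6 in Kdm6b-cKO and 1 and 2 in WT. Cells in general use these genes, so the listed values are not read as levels.

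Other noncoding RNAs of related kinds were set beside the 2.25% of tested long noncoding genes that were called, a share at which lists of this size would hold few calls or none. Of 15 tested host genes of small nucleolar RNAs, the class of Snhg11, 0 were called in edgeR, DESeq2 or limma-voom and 0 had an unadjusted p under 0.05 in edgeR, with a median log2 fold change of 0.20. Snhg14, a long neuronal host gene, had −0.14 (edgeR adjusted p = 0.335). Of 23 other long noncoding RNA genes of brain, edgeR and DESeq2 called 0 and limma-voom 1, with a median log2 fold change of 0.11. At an unadjusted p under 0.05 in edgeR there were 8 of the 23, where 2710 of the 16617 tested genes had such a p. Lncpint had a log2 fold change of −2.53 (edgeR adjusted p = 0.0609), on 1 and 3 counts in Kdm6b-cKO and 12 and 12 in WT. Mir124a-1hg, a host gene of a neuronal microRNA, had 0.23 (edgeR adjusted p = 0.0867).

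**Figure D5:**
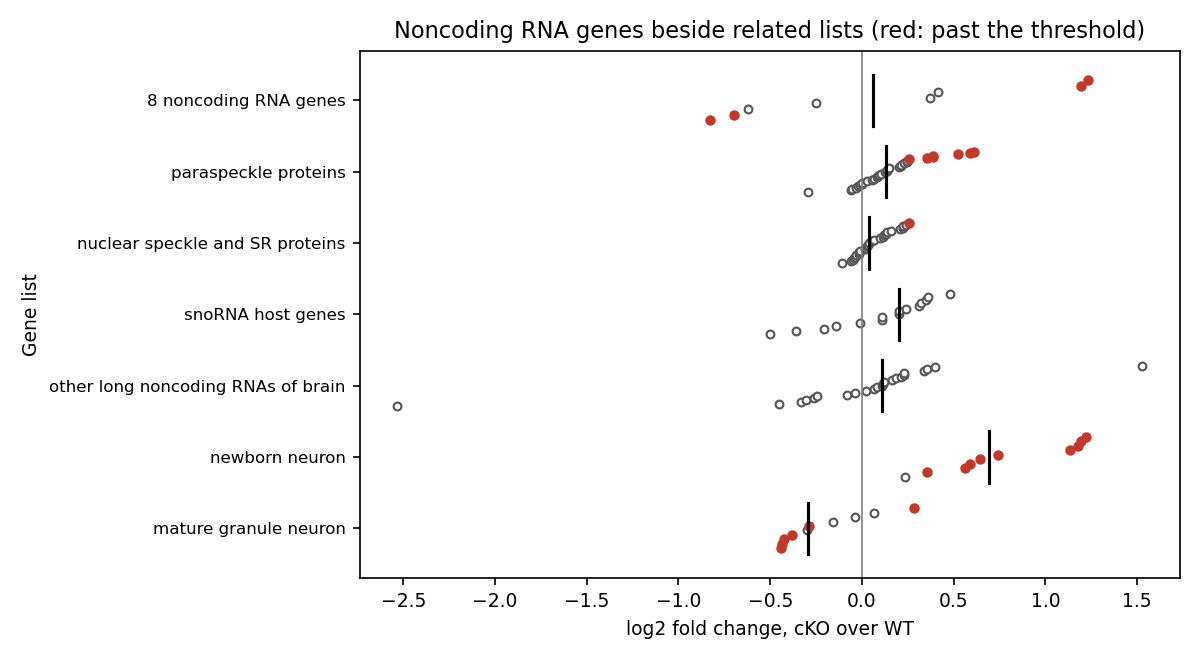
Log2 fold changes (Kdm6b-cKO over WT) of the tested genes in 7 lists, a point per gene, in red where past the edgeR threshold and open where not, with a bar at each list's median. In the paraspeckle list 7 of 32 genes passed, all as higher, while the lists of snoRNA host genes and of other brain RNAs have 0 past the threshold.

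Cell type markers moved with Miat and Gm26953. Of 10 markers of newborn neurons 9 rose in Kdm6b-cKO, where 1.87% of all tested genes rose. The markers had a median log2 fold change of 0.69. DESeq2 called 5 of the 10. Their summed level was 1997 and 2471 CPM in Kdm6b-cKO and 1468 and 1596 CPM in WT. As for Miat, the sum was highest in Kdm6b-cKO 2. Among the 11056 tested genes with a mean of at least 10 CPM, the pattern over the 4 libraries nearest to Miat was that of Gm26953 (Euclidean distance of centred log2 CPM 0.0513), then those of Cd24a (0.148), which encodes a surface protein of young neurons, and Sox11 (0.196), a transcription factor gene of the same cells. For Gm26953 they were Miat, Cd24a (0.183) and Sfrp1 (0.224), a secreted modulator of Wnt signalling. Miat and Gm26953 were chosen together as higher in Kdm6b-cKO, and reads of their shared stretch cannot be told apart. Their nearness to each other is therefore not read as a result. The part of newborn neurons in the higher Miat level was not tested.

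With Malat1 and Gm37376, markers of mature granule neurons moved. Of 10, 5 fell and 1 rose, where 2.17% of all tested genes fell and 1.87% rose. The median log2 fold change of these markers was −0.29. DESeq2 called 3 of the 10. For Gm37376 the nearest patterns were those of Kcnk12, a potassium channel gene (0.0361), Gm7276 (0.159) and Malat1 (0.161). Kcnk12 was at 31.0 and 29.7 CPM in Kdm6b-cKO and at 47.9 and 59.4 CPM in WT, with WT 2 highest. Reads of Gm37376 cannot be told apart from those of Malat1, so the nearness of this pair is not read as a result. These distances, like those from Miat and Gm26953, describe 4 libraries and carry no test.

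Of the signs of RNA composition looked at, genes overlapping ribosomal RNA sequence moved with Malat1. Genes overlapping ribosomal RNA sequence, which an enrichment for poly(A) is meant to remove, fell: Gm42418 was at 651 and 707 CPM in Kdm6b-cKO and 2944 and 4650 CPM in WT, and Lars2 at 85.1 and 91.5 CPM in Kdm6b-cKO and 331 and 363 CPM in WT, with log2 fold changes of −2.48 and −1.98. As for Malat1, WT 2 was the highest library. Of 9 RNAs without a poly(A) tail, 5 were listed at 0. The sum of the 9 was 1.01 and 1.23 CPM in Kdm6b-cKO and 2.37 and 1.19 CPM in WT, and the genotypes overlapped. Only Rn7sk was tested among them (log2 fold change −0.92, edgeR adjusted p = 0.426). The mitochondrial share of counts was 1.96% and 2.00% in Kdm6b-cKO and 2.31% and 2.17% in WT. It was lower in Kdm6b-cKO, but unlike Malat1 it was highest in WT 1. The part of poly(A) selection or RNA carry-over in the lower Malat1 level was not tested.

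Markers of the choroid plexus, a tissue beside the cerebellum, summed to 670 and 23.2 CPM in Kdm6b-cKO and 12.3 and 10.3 CPM in WT. They were highest in Kdm6b-cKO 1, and the members' values without that library are given with the other libraries left out. The part of choroid plexus tissue in any result was not tested. Of markers of microglia, endothelial and mural cells and inhibitory interneurons, edgeR, DESeq2 and limma-voom called 0 of 6, 0 of 6 and 0 of 8, with 0, 0 and 1 at an unadjusted p under 0.05 in edgeR. Of the 8 inhibitory interneuron markers, 0 had a log2 fold change above 0, and their median was −0.13.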

How the data were processed

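Per the methods and the submitters' processing notes, the authors used Trimmomatic 0.38 for trimming, STAR 2.7.2b for alignment to mm10, and HTSeq for counting over exons. The deposited values were raw counts per gene symbol. Of the strand setting, nothing was given in the sources used here. Groups and replicate numbers followed the sample titles. Symbols were matched to GENCODE M21 (GRCm38), which gave positions and sequences. Entries without a gene did not enter library sizes. Reads in no annotated feature made up 48.9% and 48.8% of entries in Kdm6b-cKO and 49.6% and 49.1% in WT.

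Genes passing filterByExpr were scaled by TMM (factors 0.986 to 1.02) and tested by edgeR 4.0.16 (quasi-likelihood, two-sided, Benjamini-Hochberg over all tested genes, threshold 0.05) in R 4.3.3, and the test was tested on simulated data first. Levels are CPM, and RPKM is CPM per kb of union exon. Between replicates, chi-square over its degrees of freedom was 4.04 in Kdm6b-cKO and 3.72 in WT, above sampling noise. The members and lists were chosen with earlier results of these data known. Genes were named by rule: the members, Kdm6b, the nearest tested gene on either side of each member, up to 4 called genes with the smallest p per list (or 2 where 0 passed), and for Miat, Gm26953 and Gm37376 the 3 nearest patterns. Those used a pseudocount of 0.25 CPM. Exceptions are named as such, and some genes that this rule takes are left out. Alternatives were other scalings, other filters, DESeq2 1.42.0, limma-voom (limma 3.58.1), a replicate block, and each library left out.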

Additional observations from a re-analysis of the deposited data

How the results depend on the processing

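Each of the 8 members kept its direction under every alternative run. The same contrast was used to choose the members, so nothing is read from which of them passed. Miat, Gm26953, Malat1 and Gm37376 were past the threshold except without Kdm6b-cKO 1 or Kdm6b-cKO 2. In those 2 fits 0 genes passed in edgeR, with 2315 and 1718 at an unadjusted p under 0.05, so a lost call there says little of any gene. Counts of calls over all genes depended more on the processing, and the cause was not tested. Genes higher in Kdm6b-cKO (310 in the fit reported) numbered 71 with no filter on low counts, 137 in DESeq2 and 0 to 263 with a library left out. Genes lower (361) numbered 106, 183 and 0 to 244. The share of calls that were lower was 53.8%, against 40.2% with scaling by library size alone and 63.0% with upper-quartile scaling, which moved the median of all genes by less than 0.1. Of paraspeckle genes, 3 passed with no filter and 0 to 5 with a library left out, in place of 7. Of speckle genes (1), 2 passed with library size alone, 0 with upper-quartile scaling, no filter or DESeq2, and 0 with any library left out. Of other brain RNAs (0), 1 passed with library size alone, 1 in limma-voom and 0 to 1 with a library left out. Of the ribosomal RNA genes, 0 to 3 did.

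Deviations of same-numbered libraries from their group means correlated at 0.043 over the tested genes. With 4 libraries, this cannot show whether same-numbered mice were paired. With the replicate block, 549 genes were higher and 581 lower, 4 speckle genes and 4 other brain RNAs passed, and Snhg11 joined the lower members, as it did without WT 2. Of uncalled neighbours, the log2 fold change with a library left out ran from −0.082 (without Kdm6b-cKO 1) to 1.19 in Gm25129, from −0.40 (without Kdm6b-cKO 2) to 0.43 in Nedd1 and from −0.39 (without Kdm6b-cKO 2) to 0.42 in Mfsd9. Without WT 2 it was −0.063 in Nedd1 and −0.14 in Mfsd9.

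With 2 libraries per group, a few individual mice decide each value. Rmst, with 17 to 33 counts, and Pantr1, with 43 to 61, are limited by depth.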

Other observations

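Markers of Purkinje cells and of glia moved in mixed directions. Of the 5 unipolar brush cell markers, 0 had a log2 fold change above 0, and their median was −0.45. Of unipolar brush cell markers 0 rose and 2 of 5 fell, of Purkinje cell markers 1 rose and 1 fell of 7, of Bergmann glia and astrocyte markers 1 rose and 3 fell of 7, and of oligodendrocyte lineage markers 1 rose and 2 fell of 11. Over all tested genes 1.87% rose and 2.17% fell. DESeq2 called 1 of the unipolar brush cell, 1 of the Purkinje cell, 3 of the Bergmann glia and astrocyte and 1 of the oligodendrocyte lineage markers. Of midbrain dopaminergic markers 2 were tested and 1 fell in edgeR and 0 in DESeq2, and Foxa2 was listed at 0.

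The median log2 fold change of tested genes in the annotation class of Gm37376 was −0.021, and that of all tested long noncoding genes was −0.017. The antisense gene Gm26700, which overlaps 1955 bp of Rmst exons, was at 0.504 and 0.784 CPM in Kdm6b-cKO and 0.647 and 0.864 CPM in WT and was not tested. GC content of the longest transcripts ran from 41.6% in Rmst to 55.1% in Miat, with a median of 48.2% over long noncoding genes.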
